A study of Mus musculus with 8 samples.

Results

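The 8 adrenergic receptor genes described here are Adra1a, Adra1b and Adra1d of the alpha-1 class, Adra2a, Adra2b and Adra2c of the alpha-2 class, and Adrb1 and Adrb3 of the beta class. They were taken by gene symbol from a whole-brain RNA-seq table of 24343 genes, in which all 8 were found, with 13 of its 34535 transcripts. The remaining beta receptor gene was not analysed here. Whole brains came from 3 C57BL/6NCrl mice, an inbred wild-type strain, 56–62 days of age and kept under a 12-hour light and 12-hour dark cycle with free access to food. There was no treatment and no second condition. Mouse 1 and mouse 2 gave 3 libraries each and mouse 3 gave 2, and the labels state neither the sex of the mice nor what the library numbers stand for. Libraries that share a mouse were averaged first, and n = 3 mice stands behind each SD.

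Adrenergic receptors are G protein-coupled receptors in the cell membrane that bind noradrenaline and adrenaline. In the brain noradrenaline is released mainly by neurons of the locus coeruleus and neighbouring brainstem groups, and it sets arousal and attention. Alpha-1 receptors couple to Gq/11 and phospholipase C, alpha-2 receptors to Gi/o, which lowers cyclic AMP, and beta receptors to Gs, which raises it. Alpha-2 receptors also sit on noradrenergic neurons themselves, where they curb further release.

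The values are FPKM, sequenced fragments scaled to transcript length and to library size, so levels of different genes are compared per length. A whole-brain value is an average over all cells, in which fewer cells of a type and less RNA per cell cannot be told apart. The depth on annotated transcripts ranged from 1.31 to 2.02 gigabases. Within that depth the least covered receptor gene had 1.30 kilobases of read in its shallowest library and the best covered one 44.9 kilobases in its deepest.

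Adra1b and Adra1a were the receptor genes with more than 1 annotated transcript, and the sequences that tell those transcripts apart are shown first because the division of reads between them varied most between libraries. Adra1b lies on the minus strand of chromosome 11 (mm10). NM_007416 starts at base 43836489, and NM_001284380 and NM_001284381 start 64748 bases upstream at base 43901237. In the GENCODE models that RefSeq pairs with them, all 3 encode the same 515 codons and differ only in what precedes the start codon. The 100 bases before each start (RefSeq, GRCm38.p6, minus strand, 5′ to 3′, at chr11:43836490-43836589 for the first and chr11:43901238-43901337 for the second) are given with every CG dinucleotide in capitals.
NM_007416: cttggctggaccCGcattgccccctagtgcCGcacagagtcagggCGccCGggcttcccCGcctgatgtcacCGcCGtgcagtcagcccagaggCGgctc
NM_001284380: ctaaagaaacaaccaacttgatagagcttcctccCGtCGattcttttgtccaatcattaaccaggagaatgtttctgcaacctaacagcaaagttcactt
The stretch before NM_007416 held 8 CG dinucleotides and the other held 2.

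Adra1a lies on the plus strand of chromosome 14 and has 4 transcripts from a single start at base 66635251. NM_013461 and NM_001271760 are paired with the same GENCODE model of 466 codons, NM_001271759 with a model of 427 codons and NM_001271761 with one of 295. The forms therefore share their N-terminal part and differ in where and how the protein ends. The coding sequences (GENCODE, GRCm38, plus strand, 5′ to 3′) are given around the 2 points where the models part, with the shared bases in lower case and the bases that follow in capitals. At the first point the shared bases are chr14:66727808-66727831, after which NM_013461 read through the exon and NM_001271759 spliced to a later exon with an early stop codon.
NM_013461: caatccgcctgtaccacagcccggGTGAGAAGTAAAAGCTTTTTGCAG
NM_001271759: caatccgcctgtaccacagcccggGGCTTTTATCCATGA
At the second point the shared bases are the end of the first coding exon, chr14:66638437-66638460, after which NM_001271761 joined a distant exon and stopped at once.
NM_013461: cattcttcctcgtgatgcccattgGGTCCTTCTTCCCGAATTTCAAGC
NM_001271761: cattcttcctcgtgatgcccattgCTTAG
In both pairs the last capitals of the shorter form are its stop codon.

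Of the receptor genes, 6 had means between 2 and 6 FPKM and the other two were below 0.5 FPKM. Adra1d had the highest mean, 5.42 ± 0.94 FPKM (SD, n = 3), and Adra2b the lowest, 0.304 ± 0.026 FPKM, a ratio of 17.8. Summed over the 8 genes, receptor transcripts came to 25.7 ± 1.70 FPKM, with a range of 21.5 to 28.3 over libraries. For scale, the median gene of the table stood at 1.54 FPKM, and the median of the 13001 genes at or above 1 FPKM was 8.81 FPKM. The 6 higher receptor genes thus lay above the median of the table and below the median of the detected genes.

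**Figure D1:**
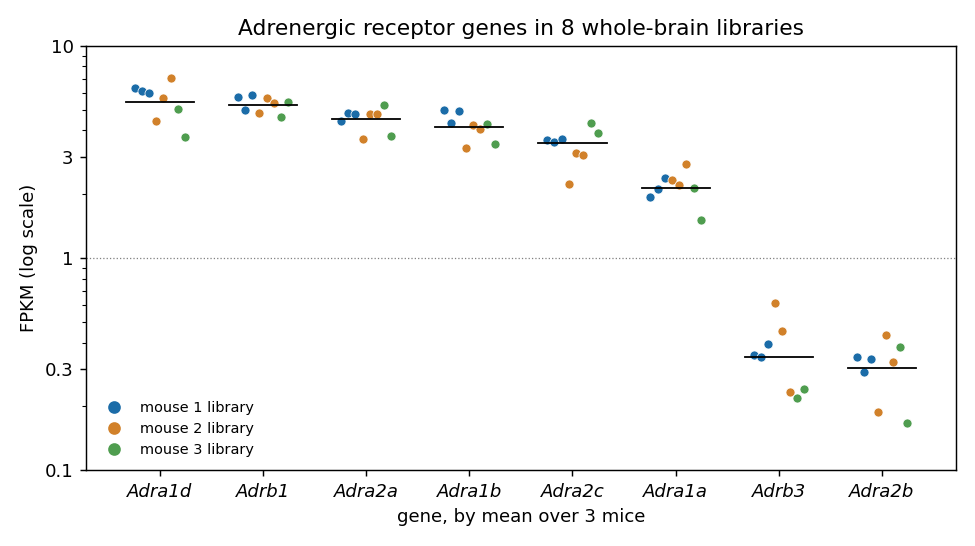
FPKM (log axis) of each adrenergic receptor gene in each of 8 whole-brain libraries, coloured by mouse, with a bar at the mean over 3 mice and a dotted line at 1 FPKM. Adra1d to Adra1a lie between 1.52 and 7.06 FPKM in every library, and Adrb3 and Adra2b between 0.168 and 0.615 FPKM.

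Among the alpha-1 genes, whose receptors raise intracellular calcium, Adra1d led. It lies on chromosome 2 at chr2:131545357-131562285, with 2 exons on the minus strand. It was measured at 6.35, 6.15 and 6.02 FPKM in the libraries of mouse 1, at 4.42, 5.66 and 7.06 in those of mouse 2 and at 5.02 and 3.73 in those of mouse 3. The libraries of mouse 1 were close to each other, those of mouse 2 spanned the values of both other mice except the lowest, and mouse 3 lay below mouse 1. An antisense gene, Gm14285, overlaps its exons on the other strand in GENCODE. The strand setting of the authors' processing is not given in the sources used here, so reads of the pair may not be told apart.

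Adra1b, the second alpha-1 gene, had a mean of 4.16 ± 0.52 FPKM (SD, n = 3). Its values were 5.01, 4.33 and 4.94 FPKM in mouse 1, 3.30, 4.23 and 4.05 in mouse 2, and 4.30 and 3.45 in mouse 3. The 3 libraries of mouse 1 were above every library of the other mice, the nearest values being 4.33 FPKM in mouse 1 and 4.30 in mouse 3. Adra1a was the lowest of the class at 2.14 ± 0.31 FPKM. It stood at 1.93, 2.12 and 2.39 FPKM in mouse 1, at 2.33, 2.22 and 2.78 in mouse 2, and at 2.13 and 1.52 in mouse 3. Mouse 2 was above mouse 3 in each library, and mouse 1 overlapped both. Adra1d made up 46.0% ± 2.3 of the summed alpha-1 FPKM, Adra1b 35.7% ± 3.2 and Adra1a 18.3% ± 2.0 (SD, n = 3).

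The alpha-2 genes encode the receptors that inhibit adenylyl cyclase and act as autoreceptors. Adra2a, an alpha-2 gene at chr19:54045182-54048982, had a mean of 4.52 ± 0.14 FPKM (SD, n = 3), the smallest relative spread between mice of the 8 genes at 3.12%. Within mice it varied more, at 4.43, 4.83 and 4.76 FPKM in mouse 1, at 3.62, 4.79 and 4.77 in mouse 2, and at 5.26 and 3.75 in mouse 3. Both the highest and the second lowest of its libraries thus came from mouse 3. Adra2c, with a single exon at chr5:35278566-35281763, had a mean of 3.50 ± 0.65 FPKM. It was at 3.59, 3.53 and 3.63 FPKM in mouse 1, at 2.24, 3.14 and 3.05 in mouse 2, and at 4.33 and 3.88 in mouse 3. In FPKM as deposited the 3 mice did not overlap, with mouse 2 lowest and mouse 3 highest. Adra2b, also a single-exon gene, at chr2:127363286-127367221, ranged from 0.168 to 0.432 FPKM with overlap between the mice. Adra2a made up 54.5% ± 3.9 of the alpha-2 sum, Adra2c 41.8% ± 4.4 and Adra2b 3.68% ± 0.56.

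Of the beta genes, Adrb1, the receptor best known for raising heart rate and also present in brain, had a mean of 5.29 ± 0.24 FPKM (SD, n = 3). It is a single-exon gene at chr19:56722372-56724862. It was measured at 5.75, 4.99 and 5.84 FPKM in mouse 1, at 4.81, 5.71 and 5.36 in mouse 2, and at 4.65 and 5.46 in mouse 3. All 3 mice overlapped, and its highest library exceeded its lowest by 1.26-fold, the narrowest range of the 8 genes. Adrb3, known mainly from adipose tissue, had a mean of 0.342 ± 0.103 FPKM and the largest relative spread between mice, 30.2%. Its values were 0.349, 0.340 and 0.393 FPKM in mouse 1, 0.615, 0.455 and 0.235 in mouse 2, and 0.220 and 0.242 in mouse 3. Both libraries of mouse 3 were below those of mouse 1, and mouse 2 held both the highest value of all and one within the range of mouse 3. Adrb3 lies at chr8:27225776-27229588 and overlaps an antisense gene, Gm45470, on the other strand. Adrb1 made up 94.0% ± 1.6 of the summed FPKM of both beta genes.

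The confidence bounds that the authors deposited with each value were compared between libraries for the 6 receptor genes with 1 transcript. The bounds of all 8 libraries shared a common range for Adrb1, Adrb3 and Adra2b. For Adra1d 9 of 28 library pairs had bounds that did not overlap, for Adra2c 6 and for Adra2a 3. The bounds were wide for the low genes, with a median half-width of 56.7% of the value for Adrb3 and 47.8% for Adra2b, against 13.0% for Adra2a and 15.2% for Adra1d.

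Neighbours in the order of the means were set against each other with an exact sign-flip permutation test over mice (two-sided), which with 3 mice cannot go below p = 0.25. Of the 7 neighbouring pairs, 3 had the gene with the higher mean on top in all 3 mice, each at p = 0.25 by this exact test (adjusted p = 0.58). These were Adrb1 over Adra2a by 1.17-fold, Adra2c over Adra1a by 1.63-fold and Adra1a over Adrb3 by 6.42-fold. In single libraries Adrb1 was above Adra2a in 7 of 8, Adra2c above Adra1a in 7 of 8, and Adra1a above Adrb3 in 8 of 8. Adra1d and Adrb1 could not be ordered, with a ratio of 1.01 and Adra1d higher in 2 of 3 mice and 5 of 8 libraries (exact p = 1). The same held for Adra2a and Adra1b (1.09-fold, exact p = 0.50), Adra1b and Adra2c (1.20-fold, exact p = 0.50) and Adrb3 and Adra2b (1.09-fold, exact p = 0.75), each with 2 of 3 mice on the side of the mean. The break between Adra1a and the 2 lowest genes was thus the only step that every library showed.

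By class, the summed FPKM was 11.7 ± 1.53 for the alpha-1 genes, 8.33 ± 0.72 for the alpha-2 genes and 5.63 ± 0.31 for the 2 beta genes (SD, n = 3). Alpha-1 exceeded alpha-2 by 1.40-fold, alpha-2 exceeded beta by 1.48-fold and alpha-1 exceeded beta by 2.07-fold, each in 3 of 3 mice and 8 of 8 libraries. The exact sign-flip test gave p = 0.25 for each of the 3 pairs, the smallest value that 3 mice allow (adjusted p = 0.25). The beta sum lacks the gene not analysed here. The alpha-1 genes made up 47.5% of the receptor sum in mouse 1 and 47.6% in mouse 2, against 41.6% in mouse 3. The alpha-2 share of the 3 mice was 31.1%, 29.8% and 36.7%. Mouse 3 had the lowest alpha-1 and the highest alpha-2 share of the 3 mice. The beta share was between 21.4% and 22.7% in the mouse means and between 18.5% and 25.7% over libraries, with both extremes in the 2 libraries of mouse 3.

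**Figure D2:**
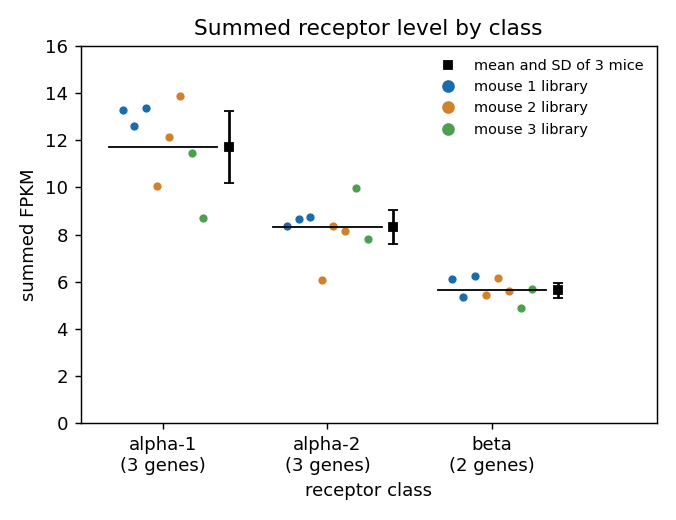
Summed FPKM of the alpha-1, alpha-2 and beta genes in each of 8 libraries, coloured by mouse, with a line at the mean and, beside it, the mean with its SD over 3 mice. In each library the order was alpha-1, alpha-2, beta, with means of 11.7, 8.33 and 5.63 FPKM.

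The division of Adra1b reads between its starts changed from library to library while the sum stayed within 3.30 to 5.01 FPKM. NM_007416, the transcript with the CG-rich upstream stretch, held over 99.9% of the Adra1b FPKM in 5 libraries. In library 3 of mouse 1 it held 87.9%, in library 3 of mouse 2 35.7% and in library 2 of mouse 3 50.9%. The rest of the signal there was given to NM_001284380, at 0.597, 2.60 and 1.70 FPKM, with deposited bounds of 2.02 to 3.19 FPKM in library 3 of mouse 2. Of the 28 library pairs, 17 had bounds of NM_001284380 that did not overlap. NM_001284381 was listed below 0.001 FPKM in every library. The libraries with signal from the distal start came from each of the 3 mice and were the last-numbered ones of each.

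For Adra1a the authors' estimates moved still more between transcripts. NM_013461 was the highest of the 4 transcripts in library 1 of each mouse, at 1.16, 1.60 and 1.75 FPKM, and was below 0.25 FPKM in the other 5 libraries. NM_001271760, which has the same coding model, reached 1.62 FPKM in library 2 of mouse 1, 1.08 in library 2 of mouse 2 and 1.95 in library 3 of mouse 2. The 2 transcripts of the 466-codon form summed held between 22.1% and 95.9% of the Adra1a FPKM (median 71.3%) and were the highest form in 6 of 8 libraries. In the other 2 libraries, library 3 of mouse 1 and library 2 of mouse 3, NM_001271759 was the highest, at 50.8% and 48.4%. NM_001271761, the shortest coding form, held up to 29.5% and had bounds with a median half-width of 104% of its value.

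A change of leading transcript is common in the table. Of 3989 genes with several transcripts and at least 1 FPKM, 2604 (65.3%) had the same leading transcript in all 8 libraries, a group to which neither Adra1a nor Adra1b belonged. Libraries of different mice with the same number had the same leading transcript in a median of 84.6% of these genes, against 85.0% for other numbers and 85.7% within a mouse. The libraries with distal Adra1b signal were number 3 in mice 1 and 2 and number 2 in mouse 3. The pair of mice 1 and 2 thus has equal numbers, and the pairs with mouse 3 do not. Library 3 of mouse 1 and library 3 of mouse 2 had the same leading transcript in 87.2% of these genes. With library 2 of mouse 3 they shared it in 85.1% (mouse 1) and 84.9% (mouse 2). The source of the Adra1b and Adra1a patterns was not tested.

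**Figure D3:**
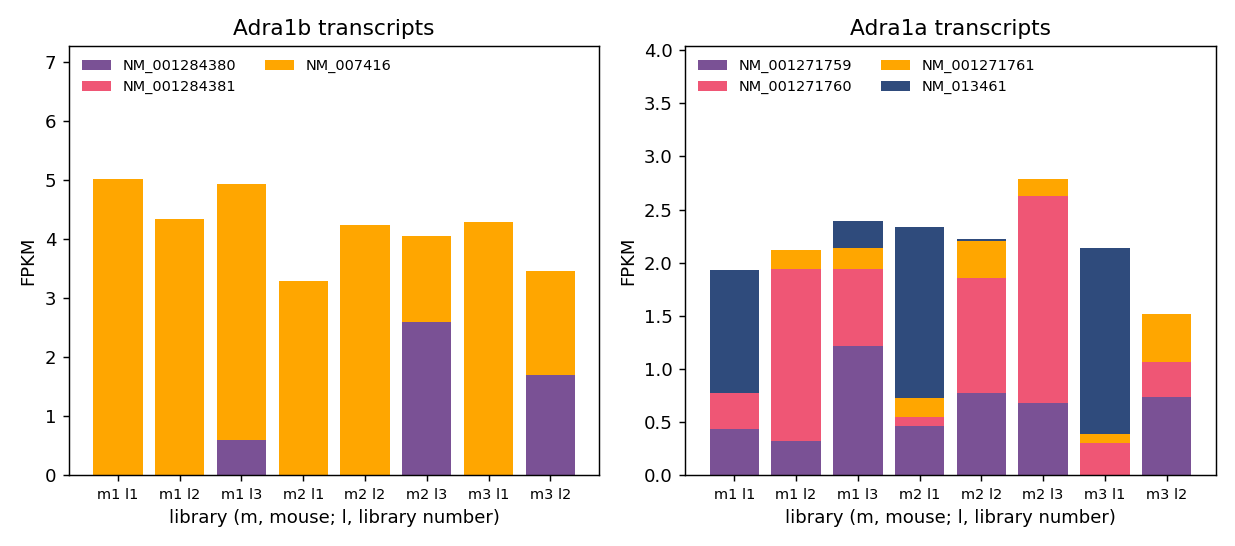
FPKM of the transcripts of Adra1b (left) and Adra1a (right), stacked in each of 8 libraries (m, mouse; l, library number). The height of the stack is the gene's level, between 3.30 and 5.01 FPKM for Adra1b and between 1.52 and 2.78 FPKM for Adra1a, while the colours, which stand for transcripts, change between libraries.

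The CG content before the Adra1b starts was set beside that of the other receptor genes. RefSeq windows of 250 bases before to 50 bases after a start were at hand for 5 of the 8 genes and for both starts of Adra1b. The window of NM_007416 held 28 CG dinucleotides, as did those of Adra2a and Adrb1, and the window of Adra2b held 29. Of 32851 windows in the RefSeq table, 14.2% held 28 or more. The window of the distal Adra1b start held 3 and that of Adra2c held 7, which is the median of all windows. The sequence GGGCGG, searched on both strands, was in the 4 CG-rich windows and in neither of the other two, against 35.7% of all windows. TATAAA was in the window of Adra2a alone (13.6% of all windows), and TGACGTCA, the cyclic AMP response element, was in none of the 6 (1.79% of all windows). Such matches describe these letters only. GGGCGG is made of G and C and holds a CG, so the share over all windows is not a matched background for CG-rich ones. The window of Adra2b starts from a position other than the start of its transcript in the deposited table, as do those of Adra2a and Adrb1.

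Since all mice were of a single condition, the test between mice compares 3 individuals, with libraries as the replicates. Log2(FPKM + 1) values of the 13001 genes that reached 1 FPKM on average went into limma's moderated F-test. Genes with a Benjamini-Hochberg adjusted p under 0.05 were called. Each limma adjusted p belongs to this F-test over the 3 mice, and not to the difference of mouse 3 printed beside it. Calls are named higher or lower in mouse 3 by the sign of that difference. None of the receptor genes tested passed the F-test in FPKM as deposited. Of the 8, 6 reached 1 FPKM and were tested, and 0 of 6 were called, against a background of 26.9% of all genes tested. At an unadjusted p under 0.05 the count was 1 of 6, against 41.1% of all genes. With the minimum lowered to 0.1 FPKM, which admits Adrb3 and Adra2b, 0 of 8 were called, against 19.2% of all genes.

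Adra2c came nearest, with mouse means of 2.20, 1.92 and 2.35 on the log2(FPKM + 1) scale and an adjusted p of 0.055 in limma. It was the only tested receptor gene for which mouse 3 was above the mean of mice 1 and 2, by 0.29 ± 0.11 (SE). Adra1d was lower in mouse 3 by a log2 difference of -0.37 ± 0.15 (limma adjusted p = 0.16) and Adra1a by -0.23 ± 0.12 (limma adjusted p = 0.26). The differences of Adra1b (-0.12), Adrb1 (-0.08) and Adra2a (-0.02) were close to or below their standard errors of 0.11, 0.10 and 0.13. The range of the 3 mouse means had a median of 0.27 over the 6 receptor genes and of 0.28 over all genes tested. In linear units the SD between mice had a median of 13.5% of the mean for the 6 and of 12.3% for all.

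The call depended on the scaling. The summed FPKM of the whole table was 384885 and 409889 in the libraries of mouse 3 and between 295541 and 345572 in the others. When each library was scaled to the same total, the median difference of mouse 3 moved from 0.02 to -0.23 over all genes and from -0.10 to -0.34 over the 6 receptor genes. Then 4 of 6 passed, all lower in mouse 3, against 43.8% of all genes in either direction and 37.2% lower in mouse 3. The log2 difference was -0.61 for Adra1d (limma adjusted p = 0.014), -0.36 for Adra1b (adjusted p = 0.023), -0.33 for Adrb1 (adjusted p = 0.031) and -0.42 for Adra1a (adjusted p = 0.049). Adra2a (-0.26) and Adra2c (0.06) did not pass. Adra2c was then highest in mouse 1, with mouse means of 2.26, 1.98 and 2.18 (limma adjusted p = 0.11). The scaling multiplies all FPKM of a library by the same factor. Because 1 is added before the log2, genes of low FPKM shift less. Adra1d moved from -0.37 to -0.61 and Adra1a, the lowest of the 6, from -0.23 to -0.42. Differences relative to the median of all genes are therefore close, but not the same, with and without it. The split of calls over all genes turned as well, from 1954 higher and 1542 lower in mouse 3 (15.0% and 11.9% of genes) to 4838 lower among 5694.

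Deviations from each gene's mean also followed transcript length, with a Spearman correlation across genes of 0.18 to 0.50 in the libraries of mice 1 and 2 and of -0.36 and -0.58 in those of mouse 3. With that trend removed from each library, 1 of 6 receptor genes passed, against 22.1% of all genes. It was Adra2c, with mouse means of 2.17, 1.94 and 2.37 (limma F-test, adjusted p = 0.032). Its difference of mouse 3 was 0.32 ± 0.09, and that of Adra1d was -0.42 ± 0.13 (limma F-test for Adra1d, adjusted p = 0.091). Without library 1 of mouse 2, in FPKM as deposited, 1 of 6 receptor genes, Adra1d, passed at a limma adjusted p of 0.0495, against 31.5% of all genes. Leaving out library 2 of mouse 3 left 360 genes called of all tested, and none of the receptors.

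**Figure D4:**
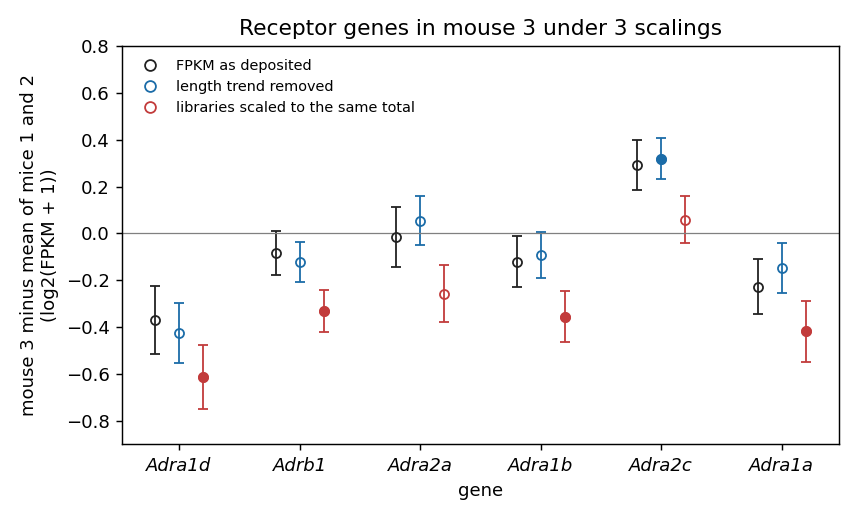
Difference of mouse 3 from the mean of mice 1 and 2 on the log2(FPKM + 1) scale for the 6 receptor genes tested, with SE, in FPKM as deposited (black), with the trend with transcript length removed (blue) and with libraries scaled to the same total (red). Filled points passed limma's F-test at an adjusted p under 0.05, which none did as deposited, 1 with the length trend removed and 4 with the same total.

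Cell type markers were checked beside these differences. Summed FPKM of the neuronal markers Snap25, Rbfox3 and Syt1 was 1352 to 1466 in mice 1 and 2 and 1152 to 1281 in mouse 3. Snap25 made up most of it, at 1112, 1056 and 999 FPKM in mice 1, 2 and 3, and was not called (limma adjusted p = 0.55). Syt1, at 273, 269 and 164 FPKM, and Rbfox3, at 77.9, 72.8 and 53.5, were called. Summed FPKM of the astrocyte markers Aqp4, Gfap and Slc1a3 was 245 to 267 in mice 1 and 2 and 390 to 416 in mouse 3. That of the oligodendrocyte markers Mbp and Mog was 1287 to 1409.5 and 2888 to 3558. Mbp made up most of that sum, at 1288, 1322 and 3166 FPKM in mice 1, 2 and 3. Mog was at 45.4, 41.4 and 57.4 FPKM and was not called (limma adjusted p = 0.077). Calls by the limma test were 2 of 3, 3 of 3 and 1 of 2, and of the remaining lists 1 of 3 microglial genes (Cx3cr1, higher in mouse 3) and 1 of 3 choroid plexus genes (Kl, lower) were called. None was called among 2 oligodendrocyte precursor, 3 endothelial, 3 smooth muscle, 3 leptomeningeal, 3 blood and 1 tested pituitary gene, and the 4 pineal genes were under 0.2 FPKM. With libraries scaled to the same total the calls were 3 of 3 neuronal (all lower in mouse 3), 1 of 3 astrocyte, 1 of 2 oligodendrocyte, 1 of 2 oligodendrocyte precursor, 0 of 3 microglial and 1 of 3 choroid plexus genes, and 0 in the remaining lists. No marker was at 0 in all libraries. The part of cell makeup in the receptor values was not tested.

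Genes that make, store, take up and break down noradrenaline ranged from 0.157 to 13.3 FPKM. Th, the rate-limiting enzyme of catecholamine synthesis, was at 6.70 ± 0.55 FPKM and Ddc at 6.74 ± 0.68 (SD, n = 3). Dbh, which turns dopamine into noradrenaline, was at 1.13 ± 0.06 FPKM, and Slc6a2, the noradrenaline transporter, at 0.467 ± 0.012. Pnmt, which makes adrenaline, was at 0.157 ± 0.193 FPKM and Phox2a, a transcription factor of noradrenergic neurons, at 0.090. Pnmt was at 0 in library 1 of mouse 1, every library of mouse 2 and library 2 of mouse 3. Its highest value was 0.744 FPKM, in library 1 of mouse 3. Each of the 6 higher receptor genes was thus above both Dbh and Slc6a2. Of the 9 genes of this list 6 were tested and 1 was called, Maob, a monoamine oxidase, higher in mouse 3 by 0.34 ± 0.07 (limma adjusted p = 0.016). The highest of the list that did not pass was Maoa, the other monoamine oxidase, at 13.3 ± 1.8 FPKM (limma adjusted p = 0.052).

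The G protein alpha subunits of all 3 arms were more abundant than any of the receptor genes. In the Gq/11 arm used by alpha-1 receptors, Gnaq was at 39.0 ± 5.2 FPKM, Gna11 at 32.6 ± 3.6 and Plcb1 at 30.3 ± 6.3. Of its 6 genes 5 were tested and 4 were called, Gnaq, Plcb1 and Plcb4 lower in mouse 3 and Gna11 higher. Plcb1 had the largest difference of these at -0.54 ± 0.08 (limma adjusted p = 0.0080). Of the rest, Plcb3 was at 5.05 ± 0.25 FPKM and Plcb2, which was not tested, at 0.364 ± 0.086.

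In the Gi/o arm used by alpha-2 receptors, Gnao1 was highest at 152 ± 25 FPKM, and of the genes that were not called Gnai1 was at 49.9 ± 4.6 and Gnai3 at 12.3 ± 1.8. Here 3 of 5 genes were called, Gnai2 higher in mouse 3 (0.39 ± 0.08) and Gnao1 (-0.44 ± 0.09) and Gnaz (-0.28 ± 0.07) lower. In the Gs and cyclic AMP arm used by beta receptors, Gnas was at 639 ± 30 FPKM and Adcy4 at 0.788 ± 0.080. Of its 12 genes 11 were tested and 1 was called, Prkacb, a catalytic subunit of protein kinase A, lower in mouse 3 by a difference of -0.31 ± 0.07 (limma adjusted p = 0.026). With libraries scaled to the same total 5 of the 11 were called, all lower in mouse 3.

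Among the kinases and arrestins that switch receptors off, Grk2 (listed as Adrbk1) was at 55.6 ± 7.2 FPKM and, of the genes that were not called, Grk3 (listed as Adrbk2) was highest at 15.5 ± 0.4 and Grk4 lowest at 1.07 ± 0.12. Grk2 and Arrb1 were called of 7, both higher in mouse 3, by 0.31 ± 0.08 and 0.32 ± 0.08. Over all these lists 11 of 34 tested genes were called, 5 higher and 6 lower in mouse 3, or 32.4%, against 26.9% of all genes. With libraries scaled to the same total 14 of the 34 (41.2%) were called, all 14 lower in mouse 3. Of all genes 43.8% were called in either direction and 37.2% lower in mouse 3. The 5 genes called higher in mouse 3, Maob, Gna11, Gnai2, Grk2 and Arrb1, were not called under that scaling. All 5 were called with the length trend removed, again higher in mouse 3. In that setting 15 of the 34 were called, against 22.1% of all genes.

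**Figure D5:**
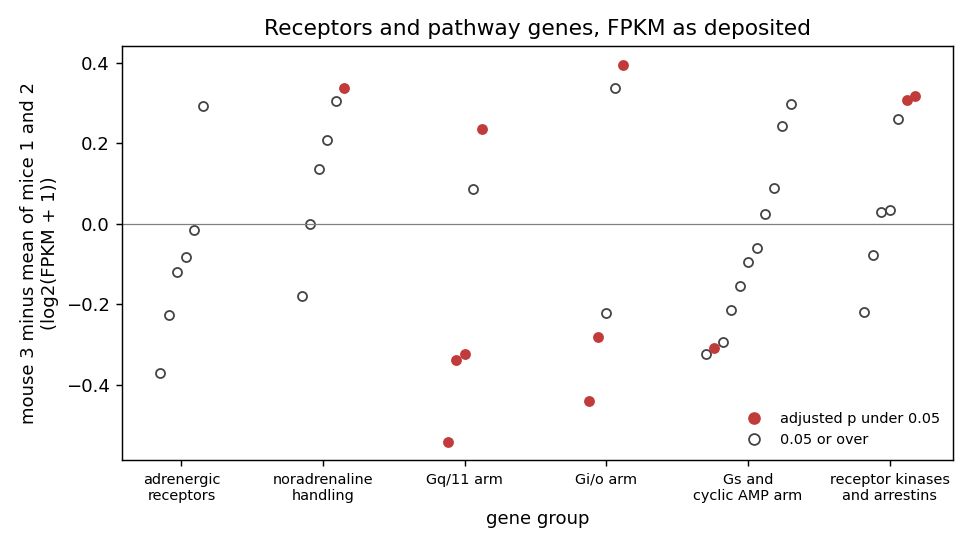
Difference of mouse 3 from the mean of mice 1 and 2 on the log2(FPKM + 1) scale for the 6 adrenergic receptor genes tested and for the 34 tested genes of the pathway lists, 1 point a gene, in FPKM as deposited. Filled points passed limma's F-test at an adjusted p under 0.05, 0 among the receptors and 11 among the other groups.

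The genes whose pattern over the 8 libraries was most like that of the leading receptor genes were sought by Pearson's r of log2(FPKM + 1) among genes of at least 1 FPKM. This is a description over 8 libraries of 3 mice, which share depth and scaling, and carries no test. Nearest to Adra1d were Rnf31 (r = 0.99), which encodes a ubiquitin ligase, Sh3bp1 (r = 0.98), which encodes a GTPase-activating protein, and Cnot11 (r = 0.98), a subunit of the CCR4-NOT complex. Nearest to Adrb1 were the zinc finger gene Zfp182 (r = 0.96) and the ubiquitin ligase genes Rnf19a (r = 0.94) and Dtx2 (r = 0.93). An r of at least 0.9 to Adra1d was found for 352 genes, and to Adrb1 for 6. Between the receptor genes themselves, Adra1d had r = 0.72 with Adra1b, 0.67 with Adra1a and with Adra2a, 0.32 with Adrb1 and 0.00 with Adra2c.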

How the data were processed

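Per the labels and the paper's methods, total RNA was isolated (RNAqueous Micro), kept at an integrity score above 8 and sequenced from Kapa mRNA HyperPrep libraries on a NextSeq500. The submitters' processing notes name TopHat, Cufflinks and mm10, and their versions and the strand setting are not given in the sources used here. The authors deposited FPKM per RefSeq transcript with confidence bounds, and coverage, a signal of read depth per base that was multiplied by length to estimate depth. Of the transcript values 8 had the status FAIL, 0 of them in receptor genes. FPKM are not counts, so no counting interval was computed.

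FPKM were summed per gene and averaged per mouse and then over mice. Mice were compared with limma (version 3.58.1, R 4.3.3) on log2(FPKM + 1), with a minimum mean of 1 FPKM and a trended prior. The code was run on simulated data with independent residuals. Those data lacked the differences in total and the length trend of the real libraries, so the run does not bear on calls that depend on them. Since libraries of a mouse may be technical repeats, p-values measure the spread between these libraries. Orders and class sums were tested by exact sign flips over 3 mice (scipy 1.17.1). The length trend was a lowess (statsmodels 0.14.6, fraction 0.3), which also centres each library. Transcript models were from GENCODE and promoter windows from RefSeq, both on GRCm38. Named genes were the 8 receptors, 6 lists of pathway genes (of which members that passed the test and the highest and lowest of the rest were given), 12 lists of cell type markers and, for the 2 receptor genes with the highest mean, the 3 genes of the most similar pattern. Some genes of these lists are not reported here. A few further pathway genes, such as Slc6a2, were named for their role. The receptors and lists were chosen with earlier results of these data known. Alternatives were another transcript summary, scaling, weighting, pseudocount and minimum, removal of the length trend, a replicate block and leaving out each library in turn.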

Additional observations from a re-analysis of the deposited data

How the results depend on the processing

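The 3 class ratios kept their direction under every alternative summary, scaling, weighting and omission of a library. With the highest transcript in place of the sum, Adra1a fell to 1.37 FPKM. Leaving out each library in turn moved Adra2a between 4.27 and 4.78 FPKM and Adra2b between 0.268 and 0.340 FPKM, and turned the order of 2 neighbouring pairs, with a log2 ratio of Adra1d over Adrb1 from -0.094 to 0.13 and of Adrb3 over Adra2b from -0.074 to 0.39. Genes called between mice numbered 3496 as deposited, 5694 with the same total and 360 to 4097 when a library was left out (360 without library 2 of mouse 3, and 2090, 1924 and 1873 without library 1, 2 or 3 of mouse 1). Receptor genes called numbered 4 with the same total, 1 with the length trend removed and 0 to 1 when a library was left out. The difference of mouse 3 changed sign for Adra2a with the length trend removed (0.055) and on leaving out a library (-0.22 to 0.18), and on leaving out a library for Adrb1 (-0.18 to 0.013) and Adra1b (-0.25 to 0.0048), with no call in any of these. The cause was not tested.

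Library number as a replicate block gave 3385 calls and 0 receptor genes, with the difference of Adra2a at 0.015. The 7 pairs of libraries with the same number in different mice had correlations of deviations between 0.0028 and 0.11, 1 of them over 0.1. Pairs with other numbers lay between -0.135 and 0.065. Deviations were taken from the mean of each mouse, so the 2 libraries of mouse 3 mirror each other. These values cannot exclude pairing by number, which the main test did not use. Depth limits Adrb3 and Adra2b most, whose deposited bounds were the widest of the genes with 1 transcript.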
